A study of Mus musculus with 62 samples.

Results

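The genes described here encode adhesion proteins that join the 2 sides of a synapse, namely the neurexins Nrxn2 and Nrxn3, the neuroligins Nlgn1, Nlgn2 and Nlgn3, and the leucine-rich repeat transmembrane neuronal proteins Lrrtm1, Lrrtm2, Lrrtm3 and Lrrtm4. They were chosen by symbol, and all 9 listed genes were found among the 11121 genes counted. RNA came from 2 brain regions, the prefrontal cortex (PFC) and, in the ventral striatum, the nucleus accumbens (NAc), of wild-type C57BL/6j male mice aged 15 weeks. One group had gone through multimodal chronic restraint stress (mCRS), in which mice are held daily in a tube under changing light, sound, odor or shaking, and the unstressed mice served as controls (CTR). Each library holds dissected tissue of mixed cell types, and the PFC gave 15 libraries per group and the NAc gave 16. Libraries were made by BRB-seq, a method that reads the 3′ ends of mRNAs with a barcode for each sample, and totals ran from 945286 to 4857359 counts.

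Neurexins sit in the presynaptic membrane and hold it to receptors on the other cell. Each neurexin gene has more than one promoter and many spliced forms, from a long alpha form to a shorter beta form. Neuroligins and LRRTMs are postsynaptic receptors of neurexins. Nlgn1 is known for excitatory synapses, Nlgn2 for inhibitory ones, Nlgn3 for both, and the LRRTMs for excitatory synapses and the AMPA receptors that lie there. Since 3′ counts add up every form of a gene, alpha and beta neurexins could not be told apart in these libraries.

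The 9 genes lie on 8 chromosomes of the mouse genome GRCm38. Nlgn2 (ENSMUSG00000051790) covers chr11:69823122-69837784 on the minus strand, and Lrrtm4 (ENSMUSG00000052581) covers chr6:80018877-80810143 on the plus strand. The 250 bases just before these genes are shown since Lrrtm4 had the widest differences between groups of all 9 genes, and since Nlgn2 alone of the pair held a glucocorticoid half-site, letters bound by the receptor of the stress hormone corticosterone. Bases are from RefSeq for GRCm38.p6, written 5′ to 3′ on the strand of the gene, with motif matches in capitals. Lrrtm4 lies behind chr6:80018627-80018876 and Nlgn2 behind chr11:69837785-69838034.
Lrrtm4: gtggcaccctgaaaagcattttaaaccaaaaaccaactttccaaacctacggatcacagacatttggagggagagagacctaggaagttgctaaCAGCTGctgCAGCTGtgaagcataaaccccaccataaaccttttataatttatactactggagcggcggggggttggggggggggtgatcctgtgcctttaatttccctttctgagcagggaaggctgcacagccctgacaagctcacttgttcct
Nlgn2: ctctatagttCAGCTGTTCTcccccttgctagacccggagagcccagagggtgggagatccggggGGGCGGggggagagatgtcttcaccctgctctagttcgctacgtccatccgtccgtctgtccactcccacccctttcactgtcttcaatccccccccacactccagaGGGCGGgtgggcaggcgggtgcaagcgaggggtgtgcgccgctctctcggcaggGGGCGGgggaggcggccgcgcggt
The Lrrtm4 window held the E-box CAGCTG at 2 places, with a GC content of 49.2%. The Nlgn2 window was richer in G and C, at 67.6%, and held 1 E-box, 1 half-site AGAACA on the other strand that overlaps the E-box, and 3 GC boxes GGGCGG. Both strands were searched. Of 32851 windows of the same length before annotated starts, 13% held the E-box, 16.1% the half-site and 32.7% the GC box. These windows did not cover every gene, and Nrxn2, Nlgn3 and Lrrtm2 had none among them. The cAMP response element TGACGTCA, found in 1.55% of these windows, was in none of the 10 windows at hand for 6 of the 9 genes. Among the windows not shown, 1 of Nrxn3 also held the half-site, and a further window of Lrrtm4 held 1 E-box. These matches are letters in a window and were not tested for binding.

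The tissue labels were checked first with genes that mark each region. In CTR mice, 6 of 10 markers of cortical excitatory neurons were higher in the PFC at a false discovery rate (FDR) below 0.05, such as Slc17a7, the vesicular glutamate transporter, and 1 of 10, Bcl11b, was higher in the NAc. All 10 markers of striatal projection neurons were higher in the NAc, such as Penk and Tac1, which encode neuropeptides. A set of 3 NAc libraries stood apart. The library labelled NAc CTR 7 had a summed striatal marker level of 523 CPM (counts scaled to 1000000 per library after TMM normalization), against 2706 to 8307 in the other NAc libraries, and a hypothalamic marker level of 2676 CPM, against at most 841. NAc mCRS 10 carried 21733 CPM of choroid plexus markers, against at most 318. NAc CTR 2 was the shallowest library of all and had 0 counts of Nlgn1, Lrrtm1, Lrrtm2 and Lrrtm3, where 0 counts allow up to 2.90 CPM. Of the other libraries, 9 had 1 of the 9 genes at 0 and 52 had none. Without these 3 libraries the difference between mCRS and CTR in the NAc was -0.04 for Nrxn2, -0.18 for Nrxn3, -0.07 for Nlgn2, -0.0047 for Nlgn3 and 0.43 for Lrrtm1 on the log2 scale, with 0 of 9 genes past an FDR below 0.05 by edgeR. Hypothalamic markers were not confined to NAc CTR 7. Their sum had medians of 231 CPM in NAc CTR (8.62 to 2676) and 322 CPM in NAc mCRS libraries (7.77 to 841). In the PFC it reached at most 46.9 CPM in CTR and 60.2 CPM in mCRS libraries. Its part in the NAc values was not tested beyond leaving out the 3 libraries that stood apart. In tissue of this kind, fewer cells of a type and less RNA per cell cannot be told apart.

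**Figure D1:**
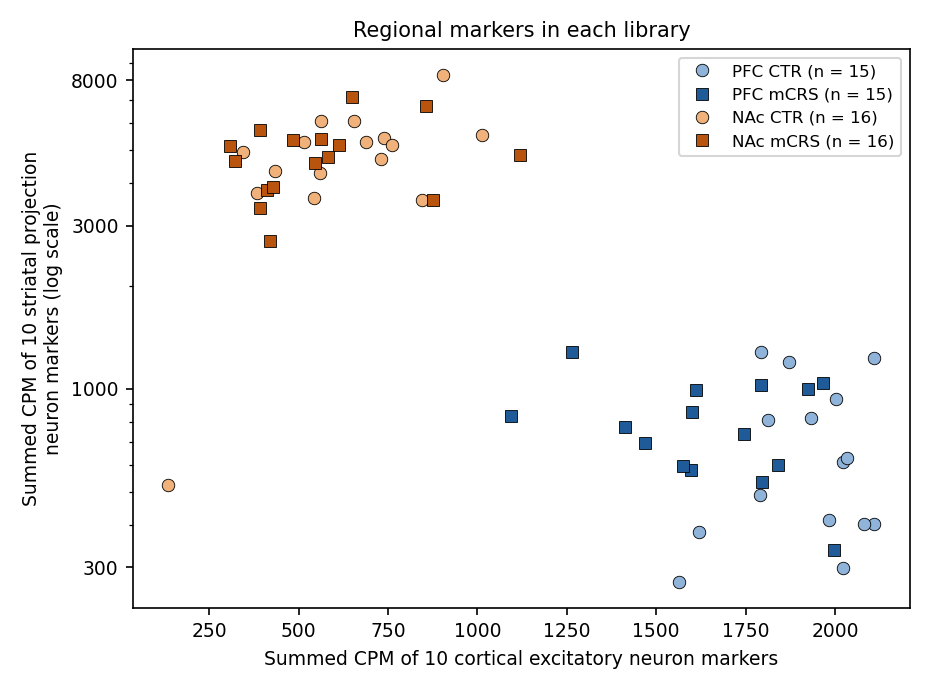
Each point is 1 library, placed by the summed CPM of 10 cortical excitatory neuron markers (horizontal axis) and of 10 striatal projection neuron markers (vertical axis, log scale), with colours for the 4 groups. PFC libraries lie between 1094 and 2110 CPM on the horizontal axis and NAc libraries between 136 and 1119 CPM, and NAc CTR 7, at 523 CPM, lies among the PFC libraries on the vertical axis.

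The first question was whether mCRS changed the expression of these genes in either region. With edgeR's quasi-likelihood test and Benjamini-Hochberg adjustment over all genes, 0 of 9 genes passed an FDR below 0.05 in PFC libraries and 0 of 9 in NAc libraries. Among all genes tested, 0% of 8916 passed in the PFC and 0.00986% of 10141, or 1 gene, in the NAc. That gene was Ttr, a choroid plexus marker (FDR = 0.0339, edgeR). With NAc mCRS 10 left out 0 genes passed, as was also found with some single NAc CTR libraries left out. At an unadjusted p below 0.05, Lrrtm4 alone of the 9 was below the line in the PFC, where 3.5% of all genes were, and 0 of 9 were in the NAc, where 2.04% were. DESeq2's Wald test called 0 of 9 in the NAc. In the PFC its own filter gave an adjusted p to only 2 of the 9, and neither was called. Lrrtm4, with an unadjusted p of 0.00332 by DESeq2, was not among these 2. Lrrtm2 alone of the 9 was below an unadjusted p of 0.05 by DESeq2 in the NAc, and Lrrtm4 alone in the PFC. The median difference of the 9 genes was -0.21 in the PFC and -0.11 in the NAc on the log2 scale, with 6 of 9 lower after mCRS in each region. The median over all genes tested was -0.01 in both.

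**Figure D2:**
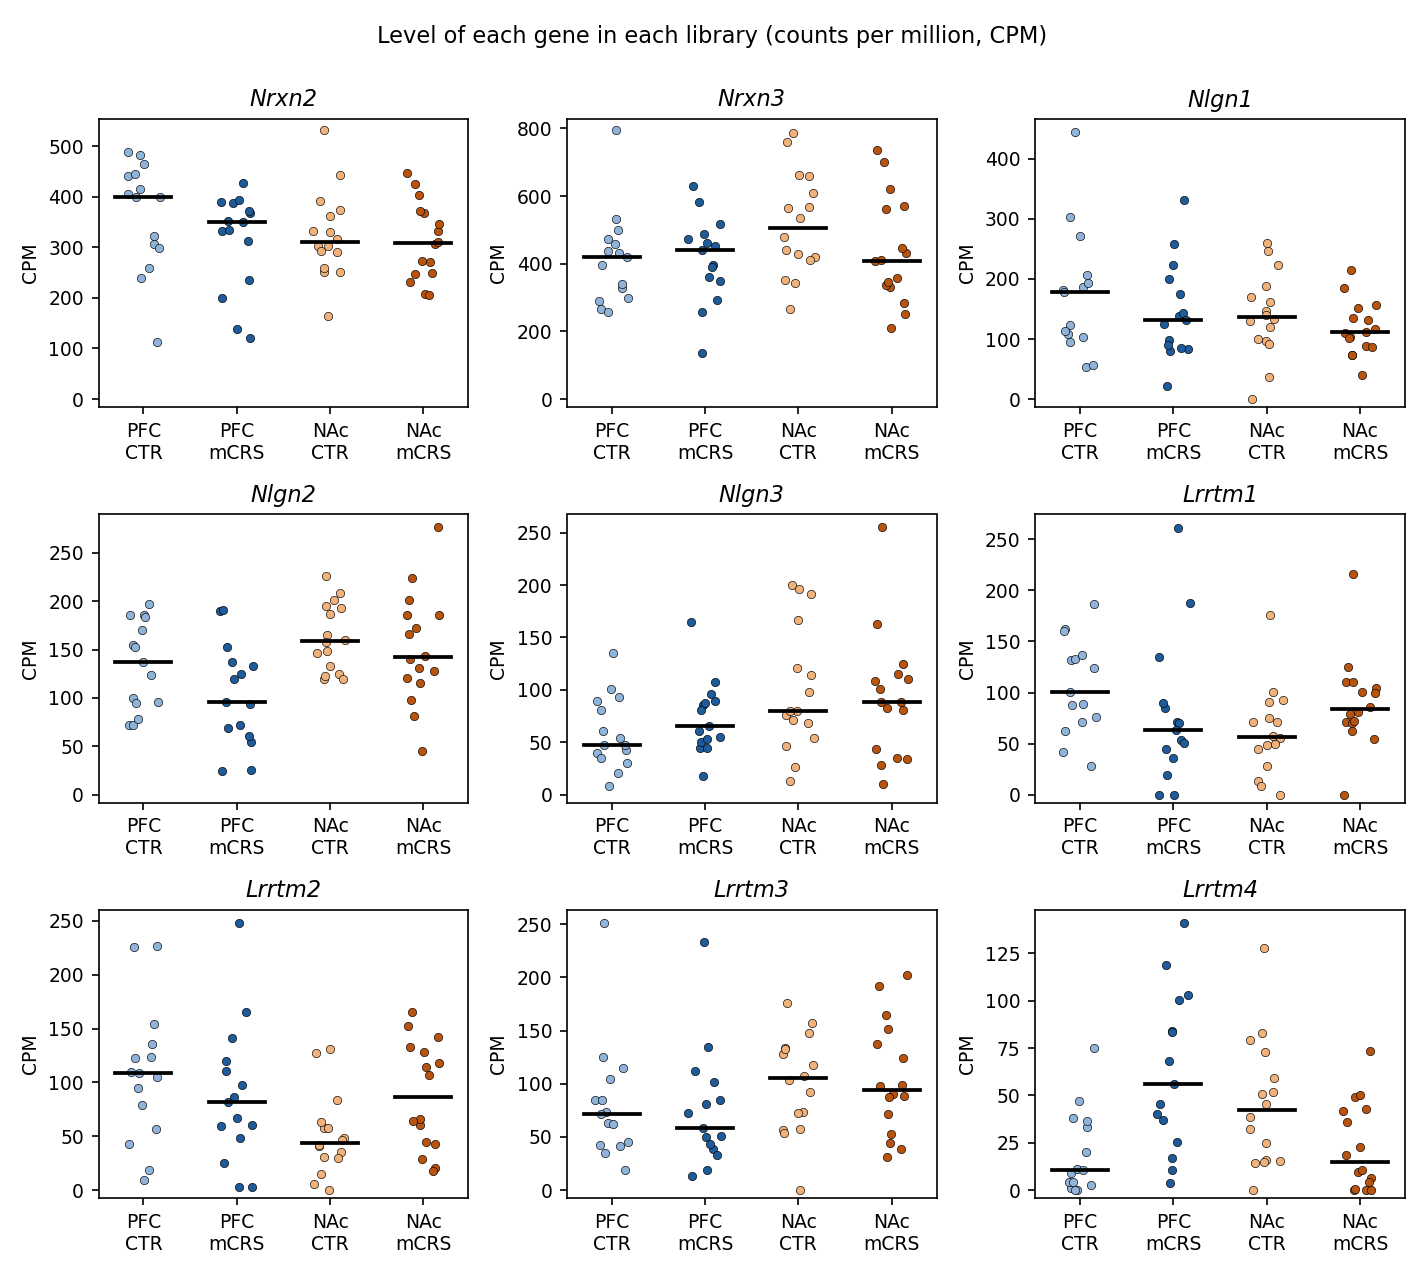
Level of each of the 9 genes in CPM (vertical axis) by group, with 1 point per library and a bar at the median (15 PFC CTR, 15 PFC mCRS, 16 NAc CTR and 16 NAc mCRS libraries). The ranges of the groups overlap in every panel, and Lrrtm4 has its highest median, 55.9 CPM, in PFC mCRS libraries and its lowest, 10.5 CPM, in PFC CTR libraries.

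The neurexins had the narrowest errors of the 9 genes. Nrxn2 (ENSMUSG00000033768, chr19:6418731-6544169, plus strand) ran from 113 to 488 CPM in PFC CTR libraries with a median of 399, and from 121 to 428 in PFC mCRS libraries with a median of 350. In the NAc its median was 310.2 CPM in CTR libraries (164 to 533) and 308 in mCRS libraries (205 to 446). Of the PFC mCRS libraries 1 of 15 lay above the CTR median, within overlapping ranges, but only 6 of 15 CTR libraries lay below the mCRS median. In the NAc these counts were 7 of 16 and 8 of 16. The log2 difference between mCRS and CTR was -0.21 ± 0.19 (SE) in the PFC and -0.06 ± 0.15 in the NAc.

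Nrxn3 (ENSMUSG00000066392, chr12:88722876-90334935, plus strand) spans more of the genome than any of the others. Its median was 420.3 CPM in PFC CTR libraries (259 to 795) and 442 in PFC mCRS libraries (135 to 631). In the NAc the median was 507 CPM in CTR libraries (265 to 786) and 409 in mCRS libraries (210.4 to 735). The log2 difference in the PFC was 0.01 ± 0.17, with a 95% interval of -0.34 to 0.36. In the NAc the difference was -0.25 ± 0.16, with an interval of -0.56 to 0.07. The NAc value was -0.07 among libraries numbered 1 to 8 and -0.51 among those numbered 9 and above (p = 0.00836, FDR = 1.0, edgeR), and with this split as a covariate it was -0.29 (p = 0.0428, FDR = 1.0, edgeR). Whether library numbers mark a batch is not given in the sources used here.

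Nlgn1 (ENSMUSG00000063887, chr3:25426215-26332460, minus strand) lay between 52.8 and 444 CPM in PFC CTR libraries, with a median of 179, and between 22.3 and 331 in PFC mCRS libraries, with a median of 132. In NAc CTR libraries it ran from 0, in NAc CTR 2, to 260.4 CPM with a median of 137, and in NAc mCRS libraries from 39.8 to 214 with a median of 111. Both regions had a lower median after mCRS within overlapping ranges, by a log2 difference of -0.26 ± 0.29 in the PFC and -0.25 ± 0.29 in the NAc. Without the 3 libraries that stood apart the NAc value was -0.35. Without PFC CTR 15, the library with 444 CPM, the PFC value was -0.088.

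Nlgn2, the neuroligin of inhibitory synapses, had a median of 137 CPM in PFC CTR libraries (71.7 to 197) and 95.5 in PFC mCRS libraries (24.6 to 191). In the NAc the medians were 159 CPM in CTR libraries (119 to 226) and 142 in mCRS libraries (45.3 to 277). The lower end of the range was lower after mCRS in both regions, while the differences were within the spread between libraries, -0.37 ± 0.29 in the PFC and -0.11 ± 0.20 in the NAc.

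Nlgn3 (ENSMUSG00000031302, chrX:101299168-101325963, plus strand) is the X-linked neuroligin. Its medians were 47.7 CPM in PFC CTR (8.22 to 135), 65.4 in PFC mCRS (17.4 to 164), 79.9 in NAc CTR (13.3 to 200.4) and 88.4 in NAc mCRS libraries (10.3 to 255). The log2 difference was 0.32 ± 0.38 in the PFC and -0.13 ± 0.33 in the NAc. Its counts are uncertain. In the last 1000 bases of its transcripts, 41.0% of the 70-base windows also match Gm21986, an annotated gene on the same strand.

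Lrrtm1 (ENSMUSG00000060780, chr6:77242689-77257791, plus strand) lies within Ctnna2, a catenin gene on the other strand, with no shared exon bases. It ran from 27.8 to 186 CPM in PFC CTR libraries with a median of 100.1, and from 0 to 261 in PFC mCRS libraries with a median of 62.9. In the NAc the order of the medians was the opposite, 56.5 CPM in CTR libraries (0 to 176) and 83.6 in mCRS libraries (0 to 216). A count of 0 was found in 2 PFC mCRS libraries and in 1 library of each NAc group. The difference was -0.45 ± 0.44 in the PFC and 0.56 ± 0.40 in the NAc, and neither passed the test.

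Lrrtm2 (ENSMUSG00000071862, chr18:35209003-35215024, minus strand) lies in the same way within Ctnna1 and shares 95 exon bases with it, and the strand setting of the counting is not given in the sources used here. Its median was 109 CPM in PFC CTR libraries (8.98 to 226) and 81.5 in PFC mCRS libraries (2.70 to 248). In NAc CTR libraries the median was 44.1 CPM (0 to 131), and in NAc mCRS libraries it was 86.9 (17.3 to 166). Of these mCRS libraries 12 of 16 lay above the CTR median, and 14 of 16 CTR libraries lay below the mCRS median. The difference was -0.28 ± 0.41 in the PFC and 0.78 ± 0.40 in the NAc, where the 95% interval was -0.01 to 1.58 and the unadjusted p 0.0521 by edgeR (FDR = 1.0). Without the 3 libraries that stood apart it was 0.63 (p = 0.0953, edgeR).

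Lrrtm3 (ENSMUSG00000042846, chr10:63928472-64090277, minus strand), within Ctnna3, had medians of 72.1 CPM in PFC CTR (18.6 to 251), 58.4 in PFC mCRS (13.2 to 234), 105 in NAc CTR (0 to 176) and 94.2 in NAc mCRS libraries (31.2 to 202). The ranges of CTR and mCRS libraries covered each other in both regions. The difference was -0.11 ± 0.38 in the PFC and 0.06 ± 0.32 in the NAc, and the NAc value changed sign, to -0.11, without the 3 libraries that stood apart.

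Lrrtm4, whose protein also binds the heparan sulfate chains of presynaptic proteoglycans, was the gene with the fewest counts, 5618 over all libraries. In PFC CTR libraries it ran from 0 to 74.8 CPM with a median of 10.5, and in PFC mCRS libraries from 3.65 to 141 with a median of 55.9. Of the PFC mCRS libraries, 13 of 15 lay above the CTR median, and 14 of 15 CTR libraries lay below the mCRS median, although the ranges overlapped. The log2 difference was 1.68 ± 0.65, a 3.20-fold higher level with a 95% interval of 0.37 to 2.98 on the log2 scale. Its unadjusted p was 0.0126 and its FDR 1.0 by edgeR, so it did not pass the test over all genes. Left out in turn, each library of the PFC gave a difference between 1.53 and 1.99, with unadjusted p values of 0.00437 to 0.0266 by edgeR. Among libraries numbered 1 to 8 the difference was 1.83 (p = 0.0486, edgeR), and among those numbered 9 and above it was 1.54 (p = 0.121, edgeR).

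In the NAc the median of Lrrtm4 was 42.1 CPM in CTR libraries (0 to 128) and 14.7 in mCRS libraries (0 to 73.6). A count of 0 was found in 2 PFC CTR, 1 NAc CTR and 3 NAc mCRS libraries. The NAc difference was -0.98 ± 0.63 on the log2 scale (unadjusted p = 0.122, FDR = 1.0, edgeR), and -1.06 without the 3 libraries that stood apart. It was -2.31 among libraries numbered 1 to 8 and -0.20 among those numbered 9 and above. An antisense gene, Gm4409, shares 1543 exon bases with Lrrtm4, and reads of the pair cannot be told apart if strand was not used.

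Several measures of the PFC libraries moved with the group. The PFC mCRS libraries held counts for 82.3% ± 6.22 of the genes (SD, n = 15), and the CTR libraries for 87.1% ± 4.42 (SD, n = 15). The summed level of the 10 cortical excitatory neuron markers had a median of 1612 CPM in mCRS (1094 to 1996) and 1984 CPM in CTR libraries (1565 to 2110), with 0 of 10 passing an FDR below 0.05 by edgeR and 0 of 10 at an unadjusted p below 0.05. The 2 PFC mCRS libraries with the highest Lrrtm4 levels, numbers 13 and 12, had the 2 lowest sums of these markers, 1263 and 1094 CPM. The next 2 in Lrrtm4 level, numbers 8 and 6, had sums of 1996 CPM, the highest of the group, and 1745 CPM. The part of these measures in the Lrrtm4 values was not tested beyond a fit that held the percentage of detected genes as a covariate, in which the difference of Lrrtm4 was 1.37 (p = 0.0645, edgeR) and 0 of 9 genes had an unadjusted p below 0.05 in the PFC. Without the 2 PFC mCRS libraries in which under 75% of genes were detected, the difference of Lrrtm4 was 1.58 (p = 0.0245, edgeR).

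The second question was whether the effect of mCRS differed between the regions. Tested as the interaction term of a fit to the 62 libraries, 0 of 9 genes passed an FDR below 0.05 by edgeR, as against 0.00907% of 11025 genes, and 1 of 9, Lrrtm4, had an unadjusted p below 0.05, as against 3.09% of all genes. DESeq2 gave the same 2 counts for the 9 genes. For Lrrtm4 the effect in the PFC exceeded that in the NAc by 2.65 ± 0.92 on the log2 scale, with an interval of 0.82 to 4.48 (unadjusted p = 0.00491, FDR = 1.0, edgeR). It was 2.73 without the 3 NAc libraries that stood apart, 4.14 among libraries numbered 1 to 8 and 1.74 among those numbered 9 and above. Lrrtm1 and Lrrtm2 had estimates of the opposite sign, -1.0 ± 0.63 and -1.08 ± 0.59, whose intervals reached past 0. The neurexins and neuroligins lay between -0.27 and 0.44, and Lrrtm3 at -0.17.

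**Figure D3:**
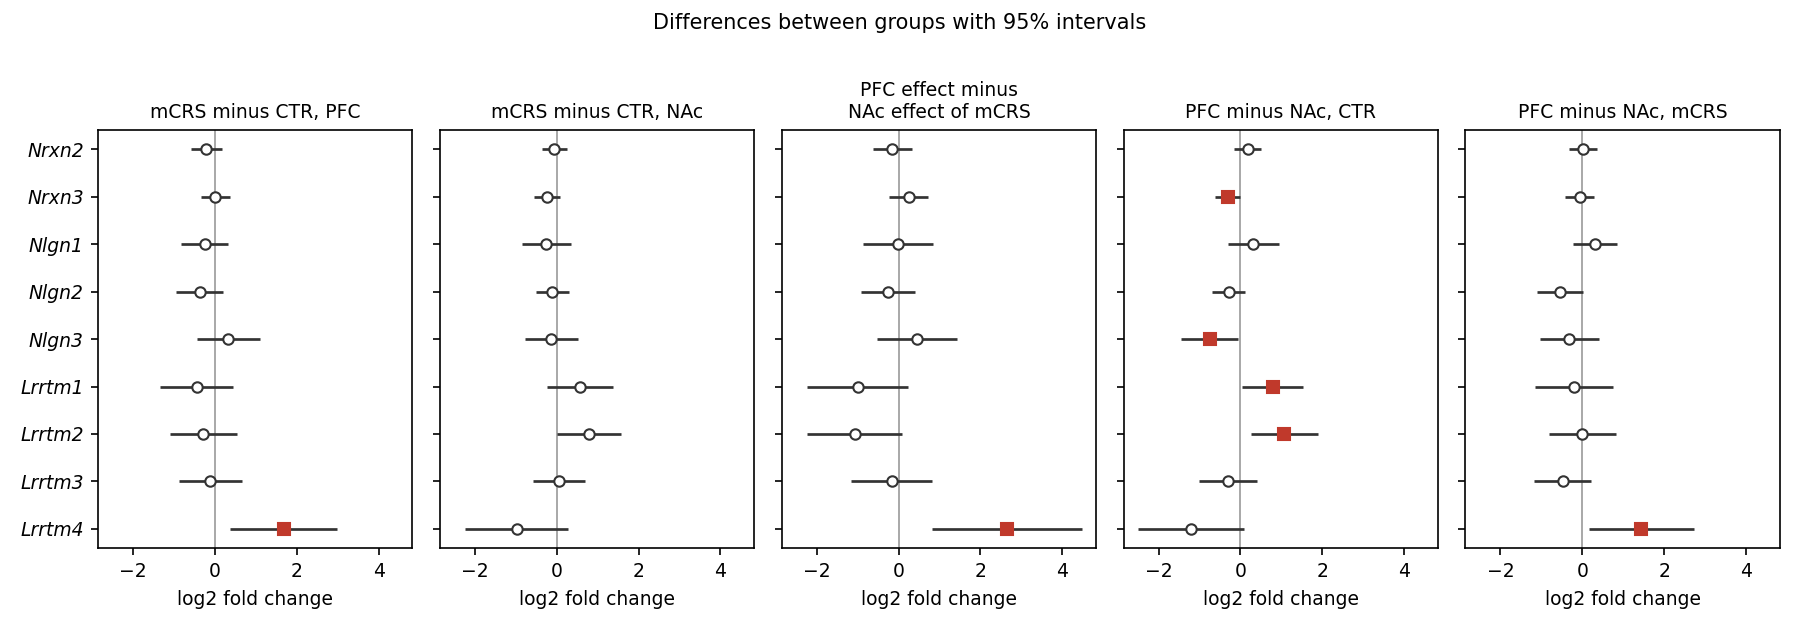
Log2 fold changes (horizontal axis) of the 9 genes with 95% intervals, 1 panel per comparison. Red squares mark an unadjusted p below 0.05, and 0 of the 9 genes passed an FDR below 0.05 in any panel. The intervals of Nrxn2 and Nrxn3 are the narrowest and that of Lrrtm4 is the widest.

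The third question was how the regions differ in these genes. In CTR mice 0 of 9 genes passed an FDR below 0.05 between the PFC and the NAc by edgeR, where 6.32% of 9932 genes passed, and 4 of 9 had an unadjusted p below 0.05, where 15% of all genes did. DESeq2 called 0 of 9 and put 5 of 9 below that p. Lrrtm2 was higher in the PFC by 1.08 ± 0.41 on the log2 scale, a 2.11-fold higher level (unadjusted p = 0.0106, FDR = 0.123, edgeR), and Lrrtm1 by 0.79 ± 0.37 (p = 0.0381, FDR = 0.283, edgeR). In both cases 14 of 16 NAc libraries lay below the PFC median. The same count held for Nrxn2, which differed by only 0.18 ± 0.16 (p = 0.291, edgeR). Nlgn3 was lower in the PFC, by a log2 difference of -0.76 ± 0.35 (p = 0.0337, FDR = 0.263, edgeR), as was Nrxn3, at -0.31 ± 0.16 (p = 0.0496, FDR = 0.332, edgeR). Lrrtm4 had a difference of -1.21 ± 0.65, and Nrxn2, Nlgn1, Nlgn2 and Lrrtm3 differed by between -0.31 and 0.32. Without the 3 NAc libraries that stood apart, Lrrtm2 stood at 0.98, Lrrtm1 at 0.69, Nlgn3 at -0.69 and Nrxn3 at -0.29. The last pair then had p values of 0.0592 and 0.0651 by edgeR.

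The mCRS mice, whose libraries were not used in that comparison, gave other values. Here too 0 of 9 genes passed an FDR below 0.05 by edgeR, where 6.31% of 9452 genes passed, and 1 of 9, Lrrtm4, had an unadjusted p below 0.05, where 14.8% did. DESeq2 called 0 of 9 and put Nlgn2 and Lrrtm4 below that p. Lrrtm4 was now higher in the PFC, by 1.44 ± 0.64 (p = 0.0275, FDR = 0.231, edgeR). Lrrtm2 stood at 0.0042 ± 0.40 with an interval of -0.81 to 0.81, and Lrrtm1 at -0.21 ± 0.48. Nlgn2 was lower in the PFC by a log2 difference of -0.55 ± 0.28 (p = 0.0539, FDR = 0.355, edgeR), Nlgn3 stood at -0.32 ± 0.36 and Nrxn3 at -0.07 ± 0.18. Without the 3 NAc libraries that stood apart, Lrrtm4 stood at 1.56 (p = 0.0210, edgeR) and Nlgn2 at -0.58 (p = 0.0444, edgeR). The difference between these values and those of CTR mice is the interaction given above. Beside these comparisons, 5 of 8 oligodendrocyte markers were higher in the NAc of CTR mice and 6 of 8 in that of mCRS mice. Their summed level was 6893 CPM at the median in NAc CTR and 3541 CPM in PFC CTR libraries, and its part in the regional values was not tested.

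By median, the order of the 4 groups differed from gene to gene. Nrxn2 and Nlgn1 were highest in PFC CTR and lowest in NAc mCRS libraries, while Lrrtm1 and Lrrtm2 shared an order, from NAc CTR through PFC mCRS and NAc mCRS to PFC CTR libraries. Nlgn2 and Lrrtm3 shared another, from PFC mCRS through PFC CTR and NAc mCRS to NAc CTR libraries. The medians of Nlgn3 ran from PFC CTR through PFC mCRS and NAc CTR to NAc mCRS libraries. The order of Lrrtm4 ran from PFC CTR through NAc mCRS and NAc CTR to PFC mCRS libraries. In all 54 pairs of groups over the 9 genes the ranges overlapped, as they did in 99.8% of such pairs over all 11121 genes. No neighbours in these orders lay apart beyond the spread of their libraries.

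The other genes of the pathway were taken from 5 lists of ligands, receptors, inhibitors and scaffolds around neurexins. In the mCRS comparisons by edgeR, 0 of 68 genes tested in the PFC and 0 of 70 in the NAc passed an FDR below 0.05. At an unadjusted p below 0.05 there were 4 and 1, beside 3.5% and 2.04% of all genes. The smallest p in the PFC was that of Cadm2, a synaptic adhesion protein of the immunoglobulin family, with a difference of 0.46 ± 0.15 (p = 0.00316, FDR = 0.854, edgeR). Among the postsynaptic scaffolds it was that of Dlg1, at 0.67 ± 0.26 (p = 0.0121, FDR = 1.0, edgeR). In the NAc it was that of Lin7a, a presynaptic scaffold, at 1.44 ± 0.62 (p = 0.0237, FDR = 1.0, edgeR).

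Between regions of CTR mice, 8 of 72 pathway genes (11.1%) passed an FDR below 0.05, beside 6.32% of all genes, all 8 higher in the PFC. Of all genes that passed, 420 were higher in the PFC and 208 in the NAc. The median log2 difference was 0.08 over the 72 genes and -0.02 over all genes. Of 15 other ligands and presynaptic partners tested, 4 passed. They were Nxph3, a secreted neurexophilin that binds alpha neurexins, at 3.31 ± 0.93, Cbln2, a secreted cerebellin that links neurexins to delta glutamate receptors, at 1.75 ± 0.55, Ptprd, a presynaptic receptor phosphatase, at 0.72 ± 0.18, and Clstn1, a calsyntenin, at 0.53 ± 0.13. The median of Cbln2 was 92.0 CPM in PFC CTR libraries (1.99 to 207) and 23.9 in NAc CTR libraries (0 to 99.7). Scaffolds gave the other 4 genes. Dlgap1, which joins PSD-95 to Shank proteins, had a median of 593 CPM in the PFC (301 to 797) and 179 in the NAc (84.2 to 502), a difference of 1.53 ± 0.18 (FDR = 7.77e-09, edgeR). Shank1 differed by 0.88 ± 0.21, and Sytl2 and Apba2 of the list of presynaptic scaffolds by 1.66 ± 0.40 and 0.64 ± 0.20. Of 26 other postsynaptic adhesion proteins 0 passed by edgeR, with 11 at an unadjusted p below 0.05, 8 of them higher in the PFC. Of 4 inhibitors and proteases 0 passed, with 2 at that p. Among all genes 15% were below that p, 873 of them higher in the PFC and 618 higher in the NAc.

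**Figure D4:**
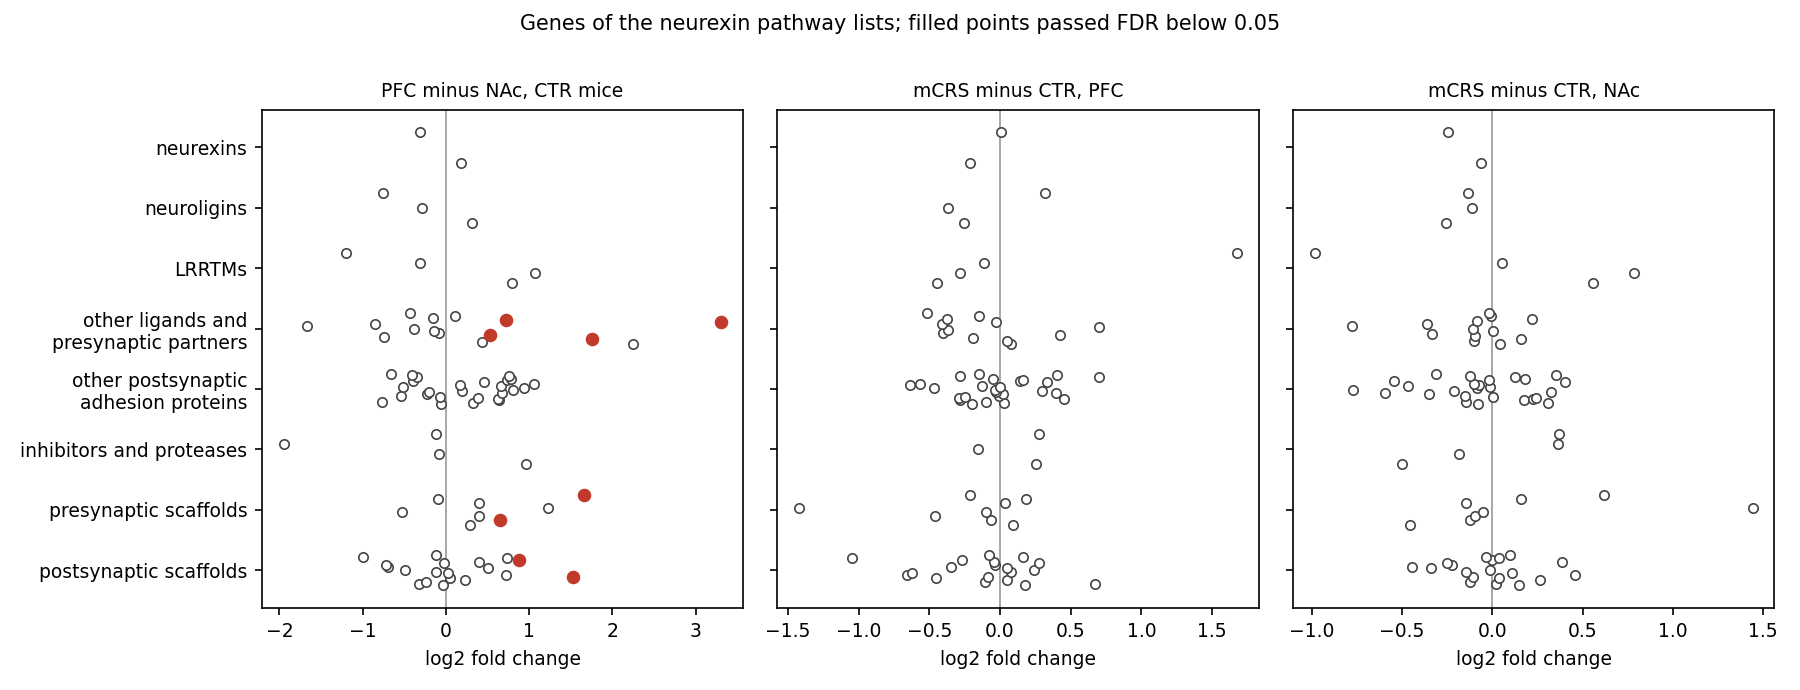
Log2 fold changes (horizontal axis) of the genes of each list, 1 point per gene, for PFC against NAc in CTR mice and for mCRS against CTR in each region. Filled points passed an FDR below 0.05, 8 in the first panel, all among ligands and scaffolds, and 0 in the other panels.

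In mCRS mice 9 of 72 pathway genes (12.5%) passed between regions, beside 6.31% of all genes, all 9 higher in the PFC. Of all genes that passed here, 400 were higher in the PFC and 196 in the NAc. Among the 9 were Ptprd, Cbln2 and Dlgap1, with differences of 0.77 ± 0.22, 1.89 ± 0.57 and 1.54 ± 0.18. Adam10, a protease that cuts neuroligins and neurexins, was higher in the PFC by 1.70 ± 0.38 (FDR = 0.00124, edgeR). Other postsynaptic adhesion genes that passed were Cadm2, Flrt2 and Lrrc4c, which binds netrin-G, at 0.85 ± 0.17, 1.66 ± 0.40 and 1.01 ± 0.26. The other 2 were C1ql3, a secreted partner of neurexins, at 2.88 ± 0.87, and the scaffold Homer1, at 0.89 ± 0.22. For the interaction 0 of 74 pathway genes passed by edgeR, with 3 at an unadjusted p below 0.05, beside 3.09% of all genes.

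The 9 genes were also set against each other from library to library. Over the 62 libraries, Pearson's r of their log2 CPM, taken as deviations from the group means, ran from -0.25 to 0.61 in 36 pairs, and Spearman's rho from -0.28 to 0.28. No pair passed after adjustment over the 36 pairs (two-sided permutation tests within groups, 100000 resamples, smallest adjusted p = 0.219 for r and 0.401 for rho). The largest r, of Nlgn1 with Lrrtm3 (0.61, rho = 0.04, permutation p = 0.0149 and 0.775), was 0.13 without the 2 libraries farthest from the median of Nlgn1. As a description with no test, the genes whose log2 CPM followed each gene most closely over the 62 libraries were Cadps for Nlgn1 (r = 0.71) and for Lrrtm3 (r = 0.59), Zfhx2 for Nrxn2 (r = 0.55), Actn1 for Nrxn3 (r = 0.56), Tob2 for Nlgn2 (r = 0.63), Ppp2r2a for Nlgn3 (r = 0.53), Zdhhc8 for Lrrtm1 (r = 0.65), Cul1 for Lrrtm2 (r = 0.58) and Sae1 for Lrrtm4 (r = 0.52). These r values were not taken as deviations from group means, so differences between libraries in region, treatment and depth can enter them. The values for Nlgn1 and the first 3 LRRTMs include the zeros of NAc CTR 2.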

How the data were processed

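RNA of PFC and NAc tissue was sequenced by BRB-seq in 62 libraries. The authors mapped reads with STAR to GRCm38, counted uniquely mapped reads per gene with htseq (version 0.9.1 in the submitters' processing notes), left out PFC samples of poor sequencing quality, and deposited the counts without normalization. Strand setting and annotation release are not given in the sources used here. If strand was not used, reads of exon bases shared with a gene on the other strand cannot be told apart. Beside Lrrtm2 and Lrrtm4, Nlgn1 shares 1229 such bases with A830092H15Rik and Nrxn3 shares 439 with Gm37980. Nrxn2 shares 682 with Slc22a12 and 207 with Gm14964. The paper describes taking both regions from each animal, so PFC and NAc libraries of a group share mice. The labels do not tie libraries to a mouse, so libraries were taken as independent. Errors and p values between regions and for the interaction therefore leave out this pairing.

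Counts were tested with edgeR 4.0.16 (R 4.3.3) by the quasi-likelihood test after TMM normalization and the default filter by group, with Benjamini-Hochberg adjustment over all genes tested, which kept all 9 genes in each comparison. Errors of log2 fold changes are SE. CPM are TMM-normalized over all libraries, with a prior count of 2 on the log2 scale, and are not per length, so that genes are not compared in level. The upper limit of 3 counts given for a count of 0 covers counting error only. Positions are those of GENCODE M21. Promoter windows come from RefSeq, with the chromosome of Lrrtm2 left out both for the listed genes and for the windows they were set against.

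Members and lists were chosen with earlier results of these data known. Named were all 9 genes, up to 4 genes per list and direction past the FDR between regions of CTR mice, the gene of smallest p per list after mCRS, here given for 3 of the lists, and the genes most like each member. Genes named between regions of mCRS mice were chosen after their values were seen. Alternatives were DESeq2 1.42.0, RLE normalization, other filters (none, or at least 10 counts in 50% of libraries), library sizes without mtDNA genes, the replicate number as a block, 2 covariates, all libraries in one fit and, for 3 of the 5 comparisons, each library left out. Library numbers 1 to 8 or 9 and above alone, libraries under 75% of genes detected and the 3 NAc libraries that stood apart were added after seeing the data. On simulated counts like those of the PFC, with 8916 genes, edgeR called 49 of 94 genes of a true log2 change of 2. At a change of 1 it called 13 of 94. These counts were 54 of 94 and 17 of 93 for the NAc, and 37 of 88 and 21 of 94 between regions of CTR mice. For the interaction they were lower, at 26 of 100 and 2 of 99. Many genes were changed at once in each simulation, which eases the adjusted cutoff, whereas 0% of genes passed in the real PFC comparison. The changed genes were drawn at random from those kept by the filter, so these rates are not those of the 9 genes.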

Additional observations from a re-analysis of the deposited data

How the results depend on the processing

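The count of members past an FDR below 0.05 was 0 in all 5 comparisons and in all 156 alternative fits of them. Of 567 alternative log2 fold changes 536 kept their sign, and of 837 with 1 library left out 818 did. Libraries were left out in turn for both mCRS comparisons and for the regions of CTR mice, not for the regions of mCRS mice or the interaction. For those that changed sign the cause was not tested. For Nrxn3 between mCRS and CTR in the PFC the value was -0.0014 without a filter, -0.017 with detected genes as a covariate, -0.011 in libraries numbered 1 to 8 and -0.075 without libraries under 75% of genes detected. With 1 library left out it ran from -0.058 to 0.10 for Nrxn3 and from -0.35 to 0.13 for Lrrtm3 in the PFC, and from -0.10 to 0.00070 for Nrxn2 and from -0.034 to 0.14 for Lrrtm3 in the NAc. In libraries numbered 9 and above, the PFC gave -0.15 for Nlgn3 and 0.20 for Lrrtm3. In libraries numbered 1 to 8, the NAc gave 0.00019 for Nrxn2 and -0.061 for Lrrtm3, and PFC against NAc in CTR mice gave 0.016 for Lrrtm3. Without the 3 NAc libraries that stood apart the NAc gave -0.11 for Lrrtm3.

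Between regions of mCRS mice, Nrxn2 and Lrrtm2 gave -0.049 and -0.047 with DESeq2 and -0.051 and -0.047 with RLE normalization. Lrrtm2 gave -0.0037 with at least 10 counts in 50% of libraries, -0.0044 without mtDNA genes and -0.011 with the number split as a covariate. In libraries numbered 1 to 8 Nrxn2 gave -0.081, and in those numbered 9 and above Nrxn3 gave 0.24 and Lrrtm2 -0.40. For the interaction, Nlgn1 gave 0.0019 with DESeq2, 0.0018 with RLE, 0.028 with detected genes as a covariate, 0.033 without libraries under 75% of genes detected and 0.093 without the 3 NAc libraries. In libraries numbered 9 and above it gave 0.023 for Nrxn2, 0.18 for Nlgn1, -0.060 for Nlgn3 and 0.069 for Lrrtm3.

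Same-numbered libraries did not deviate together (correlations of -0.03 to 0.05, 0 pairs over 0.1), so numbers were not taken as pairs. With the replicate number as a block, 0 of 9 genes passed in each comparison, Lrrtm4 was at 2.03 in the PFC, -1.94 in the NAc (p = 0.0434, edgeR, against 0.122 without the block) and 3.43 for the interaction, Lrrtm1 was at -0.96 in the PFC, and Nrxn2 and Lrrtm2 between regions of mCRS mice were at -0.028 and -0.30. The block moved the count of all genes called to 1 in the PFC and 0 in the NAc. DESeq2 called 5 genes in the PFC, where its own filter gave an adjusted p to 619 of 8916 genes and to 2 of the 9 members. Lrrtm4 had a count of 0 in 6 libraries, which held 1009783 to 3003515 counts in all.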
